A study of Mus musculus with 2 samples.

Results

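The genes described here code for subunits of the mitochondrial respiratory chain and of the ATP synthase that it drives. They are 58 genes chosen by symbol among the 32286 features counted in both libraries, and every symbol matched 1 feature. The mitochondrial genome codes for 13 of them and nuclear chromosomes for 45. Complex I is represented by 7 mitochondrially coded and 14 nuclear-coded members, complex II by 4 nuclear-coded members, complex III by 1 and 5, complex IV by 3 and 10, and complex V by 2 and 12. The question put to the data was how the 2 sets of transcripts stand to each other in each class of eye cell and in each library.

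Complex I takes electrons from NADH and complex II takes them from succinate, a step of the citric acid cycle. Complex III passes them through cytochrome c to complex IV, which reduces oxygen, and complex V makes ATP from the proton gradient that complexes I, III and IV build. Each of these complexes apart from complex II joins subunits made inside the mitochondrion with subunits imported from the cytosol, so its assembly draws on both genomes. Rods and cones pack mitochondria into the inner segment and are among the cells that use the most oxygen, and the retinal pigment epithelium (RPE) beneath them relies on oxidative metabolism.

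The study profiled single cells of the optic cup from Abca4KO mice, which lack the transporter that clears retinoid by-products from photoreceptor outer segments, so both groups carry the deletion and no intact mouse is among them. Per the series, eyes received a subretinal vector at 2 months of age and were collected 4 months later, with the sponge in 1 eye and the control in the other, but 4 months is the age in the sample labels. The control group is 1 library labelled AAV2.8-GFP, and the other group is 1 library labelled AAV2.8-Sponge.mir181. A sponge is an RNA built to soak up a microRNA, here miR-181a and miR-181b. How many mice gave each library, and which cells took up a vector, the sources used here do not say. With 1 library in each group there is no replicate error. No test was therefore run, every interval covers counting error alone, and a difference between the libraries cannot be told apart from a difference between eyes, dissections or library preparations.

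The GFP-labelled library kept 39285 cells with a median of 2415 unique molecular identifiers (UMIs, counted molecules) per cell, and the sponge-labelled library kept 23200 cells with a median of 2980.5. The eGFP sequence had 12 UMIs in the GFP-labelled library and 5484 in the sponge-labelled library, which goes against the labels unless the sponge vector also carries eGFP, which the sources used here do not say. Each library is therefore named by its label throughout. The libraries shared 290 cell barcodes. Clusters were named only from fixed markers, as resembling a class, which left 35.3% and 39.4% of the cells unnamed and gave 13 classes with at least 50 cells in each library. The 10 rod markers summed to 15602 and 20390 CPM (counts scaled to a common total per class and library) in the rod-like cells of the GFP-labelled and the sponge-labelled library, although none of them was among the 10 genes leading that cluster. The 10 amacrine markers summed to 1077 and 1404 CPM in the amacrine-like cells against 746 and 772 CPM in the rod-like cells, so that class is weakly marked. The 10 rod markers also summed to 3206 and 1913 CPM in RPE-like cells, a level that free RNA in the droplets can give. Its part in the members' levels was not tested.

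The microRNAs that the sponge is meant to bind share 1 seed, the bases 2 to 8 that pair with targets, in capitals below (RefSeq, GRCm38.p6). Each is made from 2 loci, at chr1:137966468-137966490 and chr2:38852741-38852763 for miR-181a-5p and at chr1:137966650-137966673 and chr2:38853845-38853868 for miR-181b-5p, all on the + strand. The complement of the seed, TGAATGT, was searched on the sense strand of the annotated 3′ UTR (GENCODE M21) of each nuclear-coded member. It was present in 2 of 45 members (4.44%), against 3422 of 20830 genes (16.4%). These shares were not matched for UTR length, and a short UTR has less room for a match. The UTRs of members run from 41 bases in Ndufa13 to 4252 in Atp5g1, and many are short, such as 57 bases in Ndufa5. The shares therefore do not show a shortage of matches among the members. The matches are in Sdha (chromosome 13, 74322254 to 74350280, - strand), the catalytic subunit of complex II, and in Atp5l (chromosome 9, 44912557 to 44920742, - strand), subunit g of complex V, and are shown with their flanks because they are the only seed matches among the members. They start at base 737 of the 833 of the Sdha UTR and at base 36 of the 151 of the Atp5l UTR. A match is a run of letters and does not show that a microRNA binds there.
miR-181a-5p: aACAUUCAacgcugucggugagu
miR-181b-5p: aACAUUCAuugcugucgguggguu
Sdha: tctcactgTGAATGTaactagtt
Atp5l: ttcttattTGAATGTtcttggac

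The mitochondrially coded members made up most of the respiratory chain transcripts in every class. They took 9.78% of the UMIs of all kept cells in the GFP-labelled library and 6.69% in the sponge-labelled library, against 1.26% and 1.05% for the nuclear-coded members. By class, their share was highest in rod-like cells in the GFP-labelled library, at 14.0%, and in cone-like cells in the sponge-labelled library, at 9.30%. It was lowest in ocular surface epithelium-like cells in both, at 6.0% and 3.15%. All 13 mitochondrially coded members had their highest level in rod-like cells in the GFP-labelled library, and 4 did in the sponge-labelled library, where the other 9 were highest in cone-like cells. With all cells counted, photoreceptor-like cells thus stood at the top of the mitochondrially coded levels in both libraries. This order of classes was not the same at like depth. In cells of 1000 to 2000 UMIs the share was 14.8% (GFP) and 10.96% (sponge) in rod-like cells and 15.2% and 14.3% in cone-like cells. At that depth RPE-like cells had 14.5% and 11.5%, and ocular surface epithelium-like cells (78 and 46 cells) had 12.5% and 13.8%.

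The nuclear-coded members had another order of classes. With all cells counted, their summed share was highest in RPE-like cells, at 1.82% (GFP) and 1.72% (sponge), followed by melanocyte-like cells at 1.69% and 1.68%. It was lowest in amacrine-like cells at 0.807% and 0.503%. This order also changed at like depth. In cells of 1000 to 2000 UMIs melanocyte-like cells (193 and 31 cells) had 1.95% and 1.87%, and RPE-like cells 1.86% and 1.70%. Amacrine-like cells of that depth had 1.28% and 1.12%, and rod-like cells 1.40% and 0.966%. Of the 45, 21 (GFP) and 18 (sponge) were highest in RPE-like cells and 17 and 20 in melanocyte-like cells, and 35 had the same highest class in both libraries. In each library 42 were lowest in amacrine-like cells. These counts are over all cells of a class, and the same counts for all genes are not given here. Ndufa4, a small subunit first placed in complex I and since found with complex IV, had its highest level in ocular surface epithelium-like cells in both libraries, at 1338 (GFP) and 1363 CPM (sponge).

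**Figure D1:**
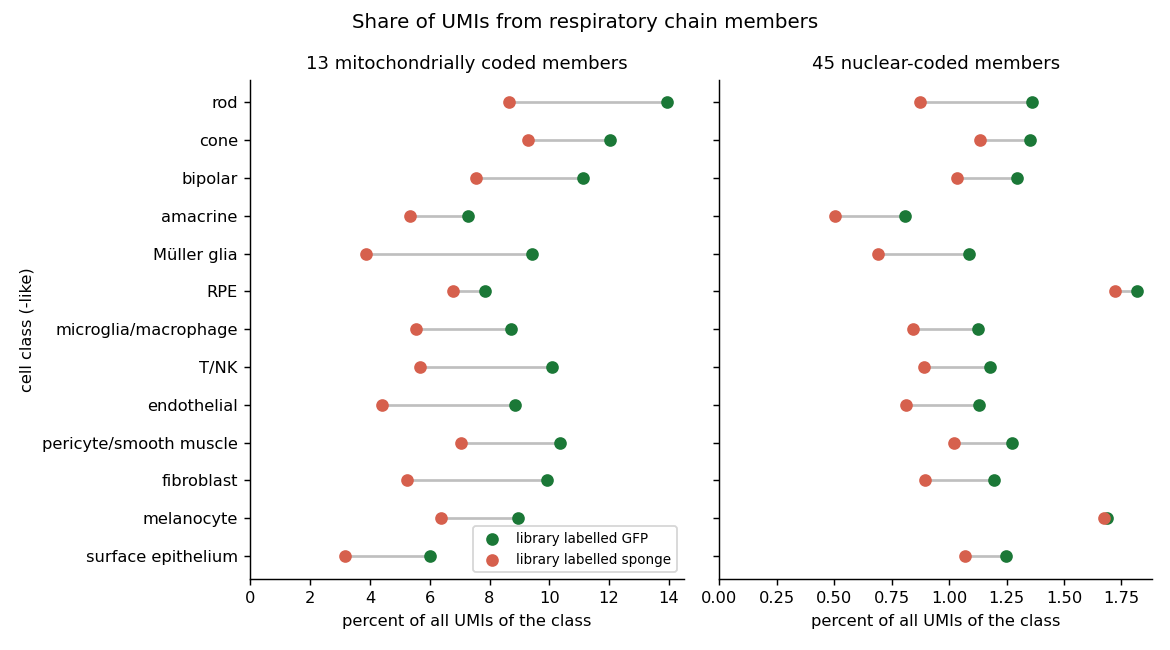
Share of the UMIs of each of the 13 cell classes taken by the 13 mitochondrially coded members and by the 45 nuclear-coded members, in percent, with 1 point per library. The mitochondrially coded share runs from 6.0% to 14.0% in the GFP-labelled library and from 3.15% to 9.30% in the sponge-labelled library, and it is lower in the sponge-labelled library in every class.

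The balance, taken as UMIs of mitochondrially coded members per UMI of nuclear-coded members, differed more between rod-like and RPE-like cells than between the libraries within either. It was 10.2 (95% interval 10.2 to 10.3) in rod-like cells of the GFP-labelled library and 9.91 (9.86 to 9.97) in those of the sponge-labelled library. In RPE-like cells it was 4.32 and 3.93. Müller-like cells had 8.67 and 5.59, the widest gap between the libraries after the ocular surface epithelium-like cells, with 4.81 and 2.94. The balance was lower in the sponge-labelled library in 12 of 13 classes, and amacrine-like cells were the exception, with 9.01 and 10.6. That count did not hold at like depth. In cells of 2000 to 4000 UMIs, a restriction chosen after seeing the data, the balance was lower in 4 of 10 classes. Müller-like cells of that depth had 8.59 (GFP) and 8.97 (sponge), and those of 4000 to 8000 UMIs had 7.78 and 6.58. Ocular surface epithelium-like cells had 7.14 and 9.93 at 2000 to 4000 UMIs (220 and 22 cells), 5.52 and 7.51 at 4000 to 8000 (432 and 25 cells), and 4.14 in both at 8000 to 16000 (285 and 52 cells). The order of the libraries in the balance therefore changed with depth in both of the classes with the widest gaps.

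Within complexes the same comparison gave 12 of 13 classes lower in the sponge-labelled library for complex I, 11 for complex IV, 12 for complex V and 7 for complex III, whose only mitochondrially coded member is mt-Cytb, cytochrome b. In rod-like cells the balance was 9.16 (GFP) and 8.34 (sponge) within complex I, 11.7 and 13.7 within complex III, 13.8 and 14.0 within complex IV, and 6.72 and 6.64 within complex V. Counting Ndufa4 with complex IV turned these into 13.03 and 11.2 for complex I and 11.1 and 11.5 for complex IV, which reversed the order of the complexes in the GFP-labelled library. RPE-like cells had the lower value of the pair in each complex and library, for example 3.93 and 3.16 within complex I and 2.45 and 2.24 within complex V.

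Rod-like cells (4453 and 5682 cells) were described in most detail because they were the largest named class of the sponge-labelled library. All 13 mitochondrially coded members were lower there in the sponge-labelled library, and 10 of them by at least 1.5-fold. Of the 45 nuclear-coded members, 36 were lower and 25 were lower by at least 1.5-fold, and 0 were higher by that much. Among all 15815 genes measured in these cells with at least 20 UMIs over both libraries, 13.5% were at least 1.5-fold lower and 9.67% at least 1.5-fold higher. Among genes with a mean of at least 50 CPM the lower share was 7.97%. The median log2 ratio, sponge over GFP, was -0.62 over the nuclear-coded members and 0.08 over all genes measured. The count of 25 was 15 with cells of at most 10% mitochondrial UMIs, 15 with cells assigned by marker score, and 13 relative to genes of like transcript length, the last chosen after seeing the data.

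In complex I of rod-like cells the 7 mitochondrially coded members summed to 35393 CPM (GFP) and 20238 CPM (sponge). They form the membrane arm that pumps protons. The most abundant, mt-Nd4, stood at 10581 and 6210 CPM (log2 ratio -0.77, -0.78 to -0.76), followed by mt-Nd1 at 9063 and 5819 CPM and mt-Nd2 at 7880 and 4790 CPM. mt-Nd5 had 3975 and 2113 CPM, and mt-Nd3 had 1571 and 654 CPM. The lowest ratios among all 58 members in these cells belonged to mt-Nd6, with 673 and 175 CPM (-1.95, -2.01 to -1.88), and mt-Nd4l, with 1649 and 478 CPM (-1.78, -1.83 to -1.74). mt-Nd6 is the only member coded on the opposite strand of the mitochondrial genome from the rest, at chrM:13552-14070, and it overlaps mt-Nd5 by 14 bases. mt-Nd4l, at chrM:9877-10173, shares 7 bases with mt-Nd4 on the same strand, so its reads could be split between the genes by the counting.

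The 14 nuclear-coded members of complex I summed to 3865 and 2428 CPM in rod-like cells, with 13 lower in the sponge-labelled library and 8 lower by at least 1.5-fold. Ndufa4 was the most abundant, at 1150 (GFP) and 619 CPM (sponge), a log2 ratio of -0.89 (-0.93 to -0.85). The accessory subunit Ndufc1 had 355 and 159 CPM (-1.16) and Ndufa1 had 168 and 82.3 CPM (-1.03). These small accessory subunits were the lowest of the 14. A pair of core subunits differed less. Ndufv1, which binds NADH, had 63.2 and 72.8 CPM (0.20) and was the only 1 of the 14 above 0, and Ndufs3, a core subunit beside it, had 83.4 and 81.6 CPM (-0.03). Ndufb8 and Ndufb10, accessory subunits of the membrane arm, had 287 and 260 CPM (-0.14) and 147 and 136 CPM (-0.11).

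Complex II, which has no mitochondrially coded subunit, differed from the other complexes in rod-like cells when each was taken as a whole. Its members all have coding sequences of at least 477 bases. Members of such length in other complexes had ratios on both sides of 0, such as Cox4i1 (507 bases, -0.34) and Uqcrc1 (1440 bases, 0.33). The part of length in the values of complex II was not tested. Its 4 members summed to 245 (GFP) and 265 CPM (sponge), with a median log2 ratio of 0.18, and 1 of 4 was lower. Sdha had 124 and 121 CPM (-0.03, -0.14 to 0.09), and Sdhb, the iron-sulfur subunit that carries electrons onward, had 54.4 and 59.1 CPM (0.12). The membrane anchors were Sdhc, at 48.9 and 57.5 CPM (0.23, 0.06 to 0.41), and Sdhd, at 18.5 and 27.3 CPM (0.56, 0.28 to 0.85), the highest ratio of all 58 members in these cells. The Sdha transcript, which holds a seed match shown above, thus differed by less than its counting interval.

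In complex III mt-Cytb stood at 13963 (GFP) and 9771 CPM (sponge) in rod-like cells, a log2 ratio of -0.52 (-0.53 to -0.50). The 5 nuclear-coded members summed to 1193 and 714 CPM and divided by subunit. The small subunits were lower in the sponge-labelled library, with Uqcrb at 444 and 224 CPM (-0.98), Uqcr11 at 229 and 112 CPM (-1.03) and Uqcrq at 368 and 208 CPM (-0.83). The large core proteins that face the matrix were not, with Uqcrc1 at 68.4 and 86.0 CPM (0.33, 0.18 to 0.48) and Uqcrc2 at 83.5 and 83.7 CPM (0.00).

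The 3 catalytic subunits of complex IV, all mitochondrially coded, were the most abundant group and summed to 67070 (GFP) and 40227 CPM (sponge). mt-Co3 was the most abundant member of all, at 29290 and 17225 CPM (-0.77), followed by mt-Co1 at 19401 and 10692 CPM (-0.86) and mt-Co2 at 18379 and 12311 CPM (-0.58). The 10 nuclear-coded members, which surround that core, summed to 4877 and 2873 CPM, and all 10 were lower in the sponge-labelled library, 8 by at least 1.5-fold. Cox7c had 552 and 237 CPM (-1.22) and Cox6c had 710 and 348 CPM (-1.03). Both are small subunits of a single membrane helix. The larger Cox4i1, a regulatory subunit, had 748 and 590 CPM (-0.34), Cox5a, which faces the matrix, had 247 and 202 CPM (-0.29), and Cox8a had 848 and 480 CPM (-0.82).

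The 2 mitochondrially coded members of complex V belong to its membrane part, and they differed from each other. mt-Atp6, which forms the proton channel, stood at 22333 (GFP) and 15900 CPM (sponge) in rod-like cells (-0.49), and mt-Atp8 at 757 and 264 CPM (-1.52, -1.58 to -1.46). The genes share 43 bases on the same strand and lie on a single transcript, at chrM:7766-7969 for mt-Atp8 and chrM:7927-8607 for mt-Atp6, so the division of reads between them depends on the counting. The 12 nuclear-coded members summed to 3436 and 2435 CPM, with 9 lower and 6 lower by at least 1.5-fold. Atp5k, subunit e of the membrane part, had 336 and 134 CPM (-1.32) and Atp5e, a small subunit of the central stalk, 377 and 185 CPM (-1.02). Atp5l had 482 and 261 CPM (-0.89). Of the catalytic head, Atp5b had 387 and 393 CPM (0.02) and Atp5a1 226 and 265 CPM (0.23). Atp5d, which belongs to the central stalk like Atp5e, had 171 and 174 CPM (0.02), so these stalk subunits differed from each other.

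**Figure D2:**
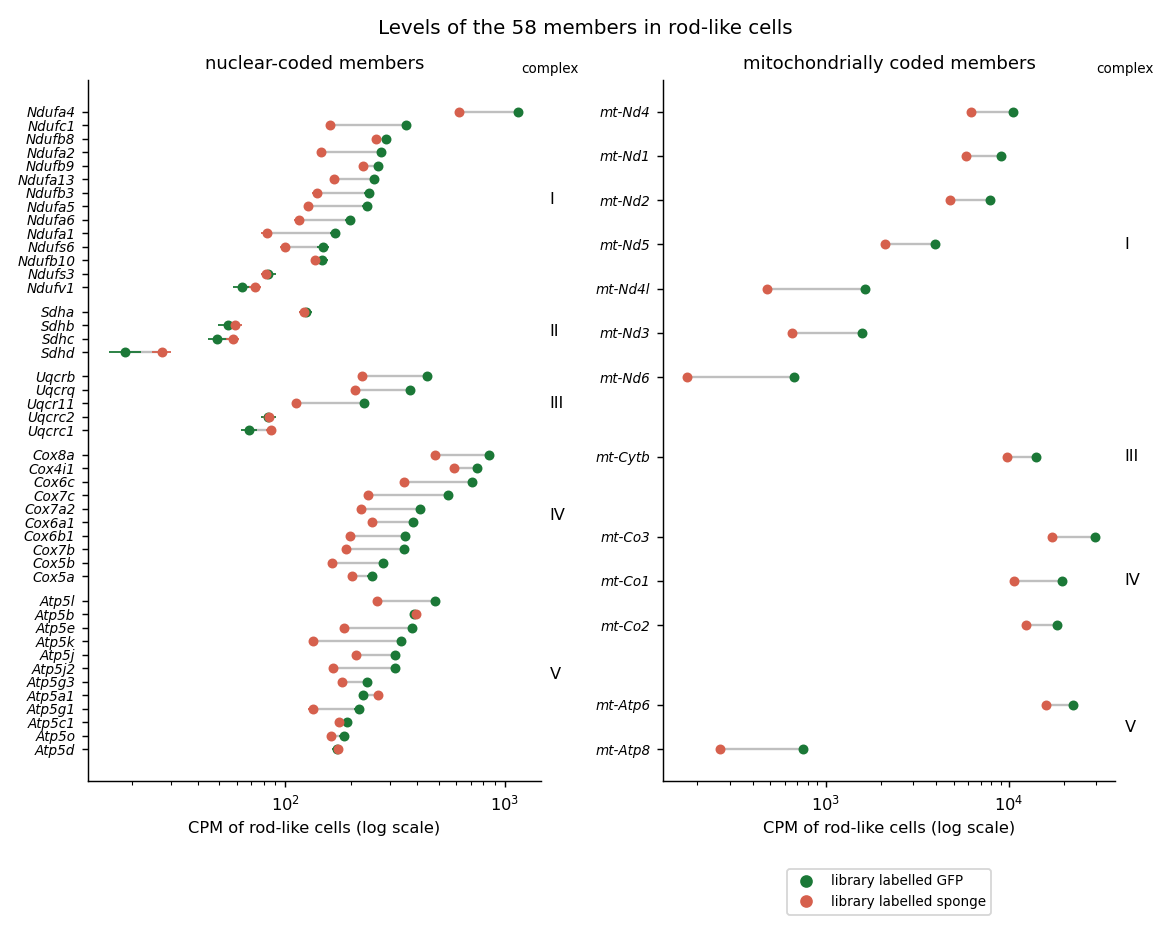
Level of each of the 58 members in rod-like cells of both libraries, in CPM on a log axis, grouped by complex and coding genome, with bars for the 95% counting interval. The mitochondrially coded members all sit lower in the sponge-labelled library, whereas 3 of the 4 members of complex II sit higher there.

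The members that were lower and those that were not in rod-like cells differed in the length of their coding sequence. Across the 45 nuclear-coded members, coding length and log2 ratio had a Spearman's rho of 0.90 and a Pearson's r of 0.85, given as a description across genes that share 2 libraries. With transcript length rho was 0.74. The 15 members with a coding sequence under 300 bases were all lower in the sponge-labelled library, from -1.32 to -0.82 with a median of -0.94. The 13 members of 300 to under 450 bases were also all lower, with a median of -0.70. Of the 8 members of 450 to under 750 bases 5 were lower (median -0.13), of the 6 of 750 to under 1500 bases 2 were lower (median 0.06), and of the 3 of at least 1500 bases 1 was lower (median 0.02).

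Other protein-coding genes in rod-like cells showed a smaller difference of the same sign in the shortest bin. Their median was -0.38 under 300 bases (316 genes, or -0.54 for those with a mean of at least 50 CPM), -0.15 at 300 to under 450 bases, 0.01 at 450 to under 750 bases, 0.09 at 750 to under 1500 bases and 0.15 above that. Across all 13692 of them rho with coding length was 0.12. The level of a member moved with its length too, and the Pearson correlation of level with log2 ratio across the nuclear-coded members was -0.62. Over the 13 classes, rho of coding length with log2 ratio ran from 0.78 to 0.90 for the nuclear-coded members and from -0.27 to 0.15 for other protein-coding genes. For the 13 mitochondrially coded members it ran from 0.36 to 0.49. The part of length in the difference was not tested.

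**Figure D3:**
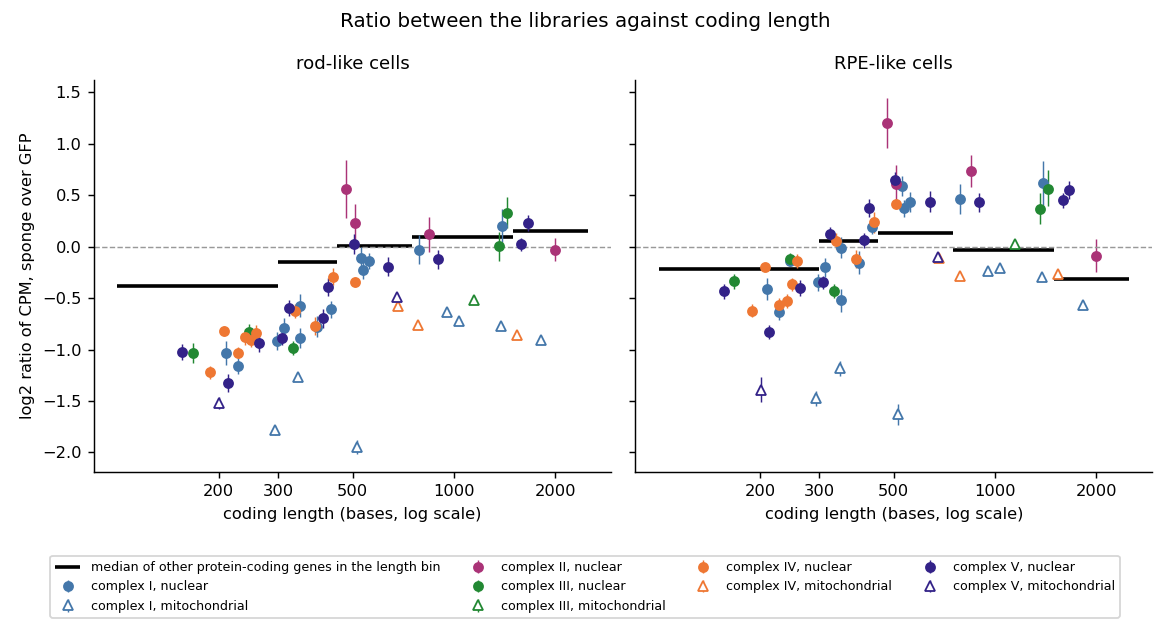
Log2 ratio, sponge over GFP, of each member against the length of its coding sequence in bases on a log axis, in rod-like and in RPE-like cells, with filled points for nuclear-coded and open triangles for mitochondrially coded members, vertical bars for the 95% counting interval and black lines for the median of other protein-coding genes in each length bin. All 15 nuclear-coded members under 300 bases lie below 0 in both classes, and longer ones lie higher.

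Müller-like cells (2900 and 1495 cells), the glia that span the retina, had the widest difference in the mitochondrially coded members when all cells were counted. Their share was 9.42% (GFP) and 3.86% (sponge), and all 13 were at least 1.5-fold lower in the sponge-labelled library. mt-Nd6 had 376 and 64.0 CPM (-2.55, -2.67 to -2.44), mt-Nd4l 1108 and 227 CPM (-2.29) and mt-Atp8 493 and 117 CPM (-2.07). mt-Co3 had 19323 and 7281 CPM (-1.41), against -0.77 in rod-like cells. Of the nuclear-coded members 36 were lower and 24 at least 1.5-fold lower, against 14.6% of all genes measured, 0 were at least 1.5-fold higher, against 12.5%, and their median log2 ratio was -0.60. Ndufa4 had 760 and 322 CPM (-1.24). Members of complex II were again the highest, with Sdhd at 15.6 and 22.1 CPM (0.50), Sdhb at 48.0 and 67.5 CPM (0.49) and Sdhc at 44.1 and 53.8 CPM (0.28).

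The Müller-like class joined 2 clusters, of which the smaller, led by the interferon-responsive genes Ly6a, Iigp1 and Gbp4, held 13 cells of the GFP-labelled library and 341 of the sponge-labelled library. Without that cluster the median of the nuclear-coded members was -0.72, the ratio of the summed mitochondrially coded members -1.25 and that of the balance -0.50, each on the log2 scale. Median UMIs per cell in the class were 2458.5 and 8030. In cells of 2000 to 4000 UMIs the log2 ratio of the summed mitochondrially coded members was -0.39, against -0.49 in rod-like cells of that depth, and with cells thinned to 1000 UMIs these values were -1.18 and -0.63. Photoreceptor markers moved with these values. The 10 rod markers summed to 7067 (GFP) and 3288 CPM (sponge) in Müller-like cells, and the cone markers to 552 and 224 CPM. The rod markers were lower in the sponge-labelled library in all 11 classes other than rods and cones, from 3206 to 7730 CPM in the GFP-labelled library and from 1332 to 5811 CPM in the other. Their part in the ratios of the members was not tested.

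RPE-like cells (1025 and 492 cells) had the smallest difference in the mitochondrially coded share when all cells were counted, at 7.86% (GFP) and 6.77% (sponge). Median UMIs per cell in the class were 6193 and 3495.5. In cells of 2000 to 4000 UMIs the log2 ratio of the summed mitochondrially coded members was -0.31. Bipolar-like cells of that depth had 0.03 and rod-like cells -0.49, so the smallest difference was not in RPE-like cells there. mt-Cytb, at 8389 and 8549 CPM (0.03, 0.01 to 0.04), was the only mitochondrially coded member above 0 in any class. The other 12 were below 0, 4 of the 13 by at least 1.5-fold, with mt-Nd6 at 424 and 137 CPM (-1.63) and mt-Nd4l at 860 and 309 CPM (-1.48). The nuclear-coded members had a median log2 ratio of -0.01, with 23 of 45 below 0, against -0.19 over all genes measured in these cells. At least 1.5-fold lower were 3, namely Atp5k at 660 and 372 CPM (-0.83), Ndufc1 at 487 and 314 CPM (-0.63) and Cox7c at 745 and 484 CPM (-0.62), against 28.3% of all genes. Ndufc1 and Cox7c were singled out after their values were seen. At least 1.5-fold higher were 6, against 9.20% of all genes.

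The highest ratios in RPE-like cells were those of Sdhd, with 27.3 and 62.8 CPM (1.20, 0.96 to 1.45), Sdhb, with 74.5 and 124 CPM (0.73), and Atp5d, with 308 and 483 CPM (0.65). The same 3 genes led in melanocyte-like cells (1905 and 381 cells), where Sdhd had 18.3 and 41.5 CPM (1.18), Sdhb 86.4 and 150 CPM (0.80) and Atp5d 252 and 419 CPM (0.74). Of the nuclear-coded members of complex IV in melanocyte-like cells, Cox8a was the most abundant in the GFP-labelled library, at 1348 and 1266 CPM, and Cox4i1 in the sponge-labelled library, at 1145 and 1586 CPM (0.47). The median of the nuclear-coded members in melanocyte-like cells was 0.02, the only one above 0, with 2 of 45 at least 1.5-fold lower, against 23.6% of all genes, and 6 at least 1.5-fold higher, against 12.3%. Both pigmented classes therefore had shares of lower nuclear-coded members below the share of all genes, whereas rod-like and Müller-like cells had shares above it. The share of all genes includes many genes of low level. Over genes with a mean of at least 50 CPM the all-gene median was -0.08 in RPE-like and -0.04 in melanocyte-like cells, against -0.19 and -0.11 over all genes measured.

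Ordering by coding length was present in RPE-like cells around a higher centre. All 15 members under 300 bases were lower (median -0.40), 7 of 13 at 300 to under 450 bases were lower (median -0.01), and 0 of 8 and 0 of 6 in the next bins, with medians of 0.51 and 0.52. The 3 members of at least 1500 bases did not continue the order, with 1 lower and a median of 0.45. Other protein-coding genes of these cells had medians of -0.21, 0.06, 0.14, -0.03 and -0.31 in the same bins. Spearman's rho across the 45 members was 0.83.

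Cone-like cells (976 and 464 cells) had mitochondrially coded shares of 12.0% (GFP) and 9.30% (sponge), and 9 of 45 nuclear-coded members were at least 1.5-fold lower, against 12.4% of all genes, and 3 at least 1.5-fold higher, against 12.2%. mt-Nd4l had 1407 and 510 CPM (-1.46) and mt-Cytb 12454 and 11464 CPM (-0.12). The catalytic Atp5b had 388 and 541 CPM (0.48), and Sdhc, Ndufv1 and Sdhd were the highest, at 0.64, 0.60 and 0.59. The cone-like class joined a main cluster (722 and 427 cells) with clusters whose runner-up class was bipolar (132 and 23 cells) or Müller (122 and 14 cells). With the main cluster alone the nuclear-coded median went from -0.15 to -0.27. The log2 ratio of the mitochondrially coded sum went from -0.37 to -0.47. Bipolar-like cells (4784 and 2426 cells), the relay neurons of the retina, had shares of 11.1% and 7.56%, with 13 nuclear-coded members at least 1.5-fold lower, against 17.9% of all genes, and 1 (Sdhd) at least 1.5-fold higher, against 6.80%. There Ndufa4 had 1098 and 838 CPM (-0.39) and mt-Co3 23388 and 15414 CPM (-0.60). Amacrine-like cells (1947 and 541 cells) had the lowest nuclear-coded levels when all cells were counted. There 23 members were at least 1.5-fold lower, against 8.48% of all genes, among them Atp5k at 195 and 68.2 CPM (-1.51). Higher by that much was 1 (Sdhd), against 9.77%. Their mitochondrially coded share was 7.27% and 5.34%, with mt-Atp6 at 11499 and 9542 CPM (-0.27).

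In the immune, vascular and fibroblast-like classes the nuclear-coded members had medians between -0.45 and -0.27. Endothelial-like cells (1128 and 397 cells) had 17 members at least 1.5-fold lower and 1 higher (Sdhd), against 15.4% and 15.4% of all genes, and a mitochondrially coded share of 8.86% (GFP) and 4.40% (sponge). Fibroblast-like cells (3073 and 641 cells) had 18 lower and 1 higher (Sdhd), against 20.1% and 15.8%, and shares of 9.93% and 5.23%. Microglia- and macrophage-like cells (1204 and 714 cells) had 16 lower and 2 higher (Sdhd and Sdhb), against 22.1% and 13.4%. T and NK-like cells (188 and 92 cells) had 16 of 44 lower and 0 higher, against 16.7% and 22.2%. Sdhd had 9 and 8 UMIs there, a log2 ratio of -0.22 (-1.80 to 1.32), and was left out as not measured. Pericyte and smooth muscle-like cells (676 and 242 cells) had 12 lower and 1 higher (Sdhd), against 13.6% and 17.6%. Ocular surface epithelium-like cells (1107 and 446 cells) had 8 lower and 1 higher (Atp5d), against 40.0% and 10.8% of all genes. Their nuclear-coded median was -0.22. The all-gene median of the class was -0.37, or -0.09 over genes with a mean of at least 50 CPM. All 13 of their mitochondrially coded members were at least 1.5-fold lower, with mt-Atp8 at 221 and 42.5 CPM (-2.38). Depth differed most in that class, and the log2 ratio of its summed mitochondrially coded members was -0.93 over all cells and -0.53 with each cell thinned to 1000 UMIs. Its mitochondrially coded share was higher in the sponge-labelled library at 2000 to 4000 UMIs (9.24% and 11.2%) and at 4000 to 8000 UMIs (6.71% and 7.40%), in 22 and 25 cells of that library.

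Some members kept their sign in every class. Below 0 in all 13 classes were 12 of 13 mitochondrially coded members and 18 of 45 nuclear-coded members, and above 0 in every class where they were measured were 5, namely Ndufv1, Sdhb, Sdhd (12 classes), Atp5a1 and Atp5d. Of the 7543 genes measured in every class, 257 (3.41%) were below 0 in all 13 and 278 (3.69%) above 0 in all 13. At least 1.5-fold lower in all 13 classes were mt-Nd3, mt-Nd4l, mt-Nd6, mt-Atp8, Ndufc1 and Atp5k, 6 of the 16 genes (0.212%) of which that was true. Cox7c passed that fold in 12 classes and Cox6c in 11. By complex, the median of the 4 members of complex II was above 0 in all 13 classes, from 0.08 in amacrine-like to 0.67 in RPE-like cells. Of its 51 member and class pairs 0 were at least 1.5-fold lower and 14 were higher, against 19.2% and 12.4% of the pairs of all genes. Of these 14 pairs 9 were of Sdhd, the least abundant of the 4 members, 3 of Sdhb, 2 of Sdhc and 0 of Sdha. The count of higher pairs therefore rests mostly on Sdhd and is not a trait of the complex as a whole. The nuclear-coded medians of complexes I, III and IV were below 0 in all 13 classes and that of complex V in 9. These classes share 2 libraries and their free RNA, so they are not independent of each other.

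**Figure D4:**
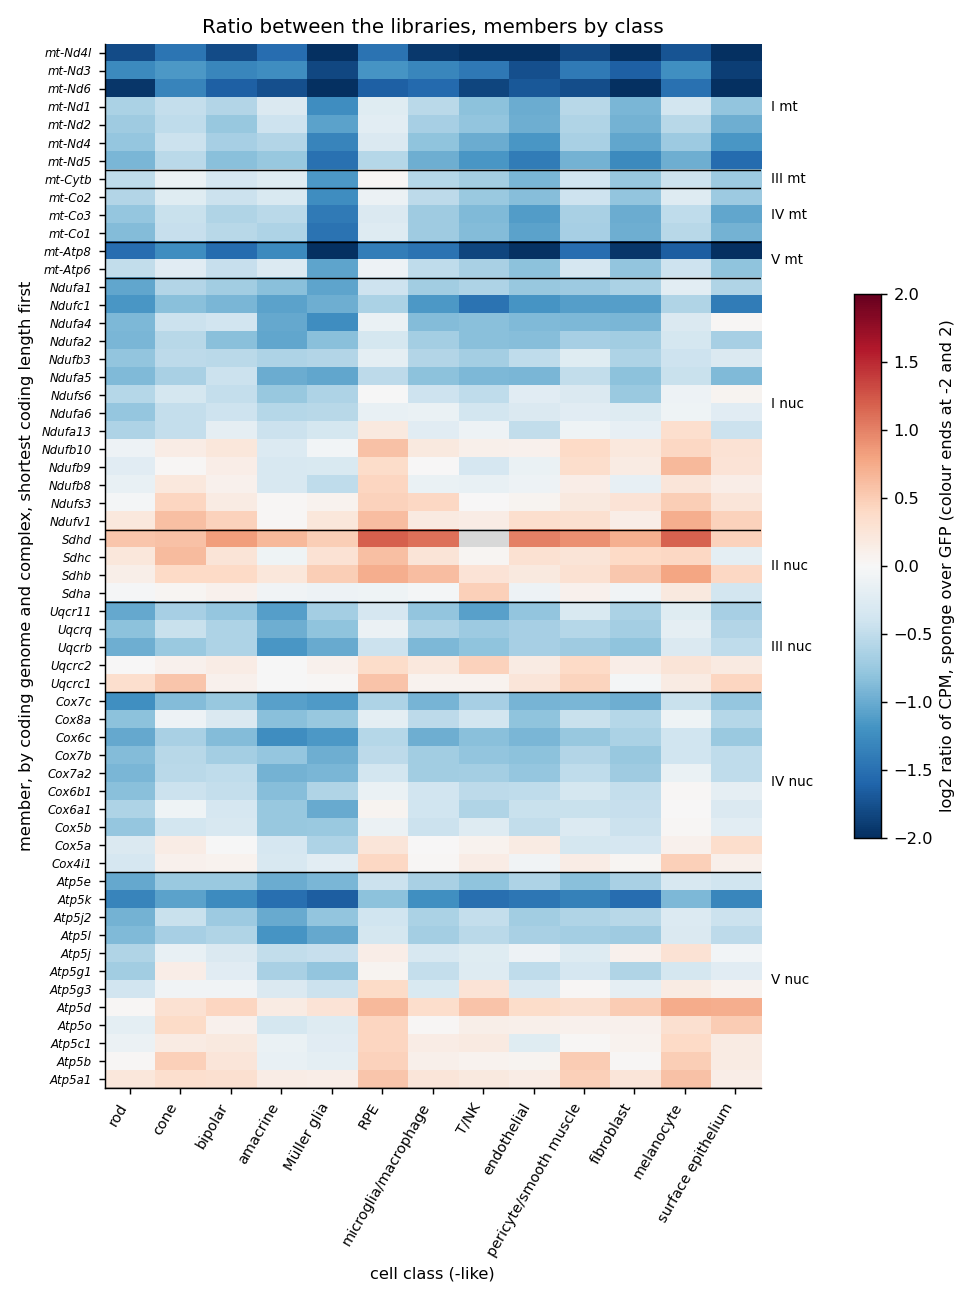
Log2 ratio, sponge over GFP, of each member (rows, by coding genome and complex, shortest coding sequence first) in each of the 13 cell classes (columns), with blue for lower and red for higher in the sponge-labelled library, a colour scale that ends at -2 and 2, and grey where Sdhd was not measured. mt-Nd3, mt-Nd4l, mt-Nd6, mt-Atp8, Ndufc1 and Atp5k are blue in every class, and Ndufv1, Sdhb, Sdhd, Atp5a1 and Atp5d are red in every class measured.

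The mitochondrially coded transcripts differed between the libraries in composition as well as in sum. As a share of the UMIs of the 13 members, mt-Co3 took 20.1% to 21.05% over the classes of the GFP-labelled library and 18.6% to 20.7% over those of the sponge-labelled library. mt-Atp6 took 14.5% to 16.2% and 15.7% to 18.9%, and mt-Cytb took 9.62% to 10.7% and 10.2% to 12.6%. The shares of mt-Atp6, mt-Cytb and mt-Co2 were higher in the sponge-labelled library in 13 of 13 classes. mt-Nd4l took 1.03% to 1.19% and 0.390% to 0.587%, ranges that do not overlap, and neither did those of mt-Nd3, mt-Nd6 and mt-Atp8. These 4 short genes, mt-Nd4, mt-Nd5 and mt-Co3 had a lower share in the sponge-labelled library in every class. The ranges run over classes that share 2 libraries, so they are not a spread of replicates, and no such ranges are given for other genes. Shares of a single sum are also tied to each other, and a lower share of some members raises that of the rest.

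Depth per cell moved with these values. Median UMIs per cell were higher in the sponge-labelled library in 11 of 13 classes, from 0.564 times the median of the GFP-labelled library in RPE-like cells to 4.04 times in ocular surface epithelium-like cells, and within most classes the mitochondrially coded share was lower in deeper cells. Among rod-like cells of 2000 to 4000 UMIs (1067 and 3414 cells) it was 12.4% (GFP) and 8.85% (sponge), and among those of 1000 to 2000 UMIs 14.8% and 10.96%. The nuclear-coded share in the same bins was 1.28% and 0.848%, and 1.40% and 0.966%. The difference in rod-like cells was thus present at like depth. Among Müller-like cells of 4000 to 8000 UMIs the mitochondrially coded share was 7.18% and 4.30% and among those of 2000 to 4000 UMIs 9.28% and 7.09%.

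In bipolar-like and cone-like cells the direction of the difference depended on the depth compared. Bipolar-like cells of 2000 to 4000 UMIs (2796 and 444 cells) had 11.2% (GFP) and 11.4% (sponge), those of 4000 to 8000 UMIs 8.01% and 8.21%, and those of 1000 to 2000 UMIs (1426 and 123 cells) 14.5% and 12.8%. Cone-like cells had 11.3% and 12.7% (438 and 197 cells), 8.04% and 8.49%, and 15.2% and 14.3% (455 and 48 cells) in the same bins. Melanocyte-like cells of 4000 to 8000 UMIs (603 and 74 cells) had 7.77% and 8.44%. RPE-like cells had 14.5% and 11.5% at 1000 to 2000 UMIs (125 and 149 cells), 11.5% and 9.29% at 2000 to 4000 UMIs (172 and 101 cells), 8.72% and 6.82% at 4000 to 8000 UMIs (354 and 53 cells), and 7.11% and 8.33% at 8000 to 16000 UMIs (296 and 25 cells), so the direction was the same in the first 3 bins and the opposite in the last. Over the 10 classes with at least 50 cells of 2000 to 4000 UMIs in each library, the mitochondrially coded sum was lower in the sponge-labelled library in 8 and the nuclear-coded median in 7. Members with low ratios kept them in rod-like cells at that depth, with mt-Nd6 at -1.96 and mt-Nd4l at -1.48.

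**Figure D5:**
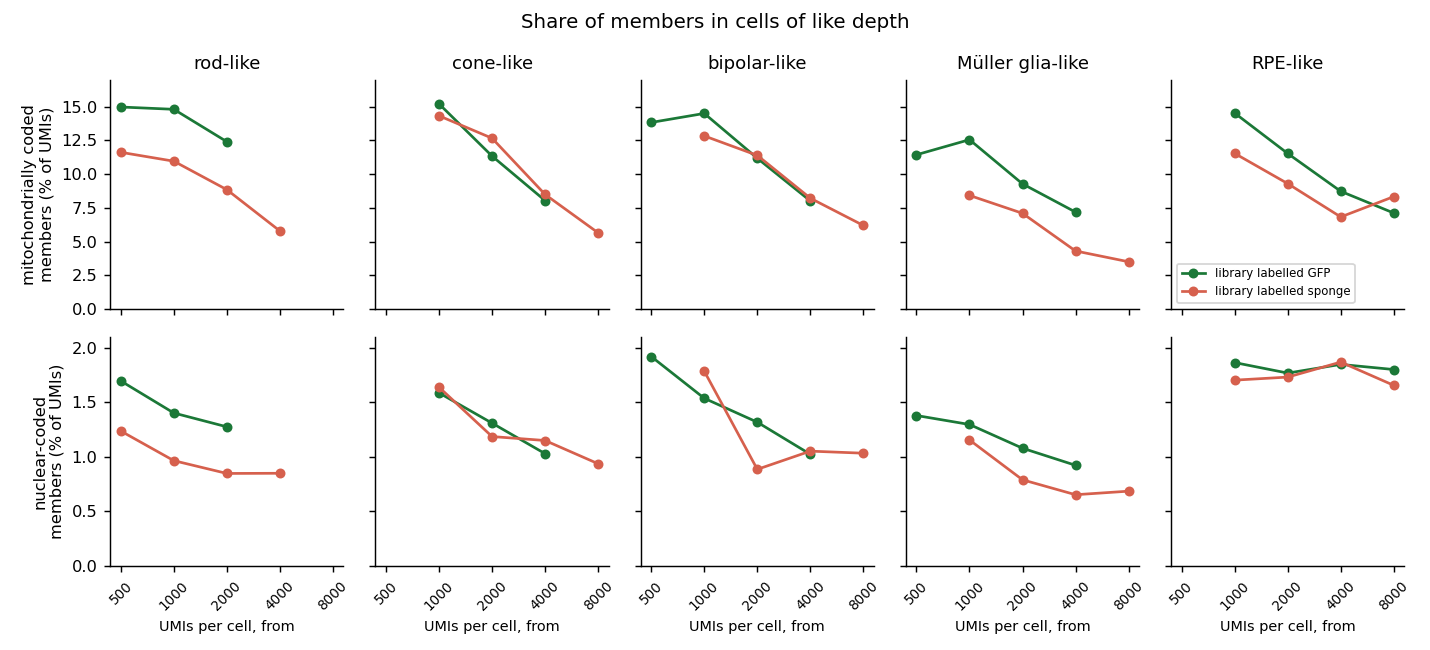
Share of UMIs of the mitochondrially coded (upper row) and nuclear-coded members (lower row), in percent, against the lower bound of the bin of UMIs per cell on a log axis, for 5 classes and both libraries, in bins with at least 20 cells. Rod-like cells of the sponge-labelled library lie below those of the GFP-labelled library at 12.4% and 8.85% from 2000 UMIs, whereas bipolar-like cells lie together at 11.2% and 11.4%.

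Forms of a subunit that are used in particular tissues differed in level between classes. Cox8b, a form of Cox8a known from heart and skeletal muscle, had 429 (GFP) and 237 CPM (sponge) in RPE-like cells and at most 27.0 and 14.7 CPM elsewhere. Ndufa4l2, a hypoxia-responsive relative of Ndufa4, was highest in pericyte and smooth muscle-like cells at 116 and 426 CPM. Cox4i2, a form of Cox4i1 linked to low oxygen, had 154 and 243 CPM there and 116 and 220 CPM in Müller-like cells. Cox6b2, known from testis, had 186 and 197 CPM in melanocyte-like cells. Among the members, Atp5g1, which codes for a subunit of the rotor ring of complex V, was highest in RPE-like cells at 407 and 425 CPM, against 215 and 133 CPM in rod-like cells.

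Other genes of the pathway were read from lists that do not contain the members. In rod-like cells the 24 other measured subunits of complex I had a median log2 ratio of -0.44, with 17 below 0 and 8 at least 1.5-fold lower. Of all 15815 genes measured in these cells, 6773 were below 0, 13.5% were at least 1.5-fold lower and 9.67% at least 1.5-fold higher. Ndufb1-ps had 234 (GFP) and 89.8 CPM (sponge), and Ndufa3 and Ndufb2 had ratios of -1.19 and -1.004, whereas Ndufa10 and Ndufs4 had 0.30 and 0.28. All 7 other subunits of complex IV and all 6 of complex V were below 0, with 4 and 3 at least 1.5-fold lower. Of the 5 genes listed for complex III and cytochrome c, 3 were below 0.

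Genes that build the chain or express the mitochondrial genome gave other values in rod-like cells. Of 43 assembly factors 19 were below 0, 3 at least 1.5-fold lower and 5 higher, with a median of 0.10. Of all genes measured in these cells 6773 of 15815 were below 0, with a median of 0.08, so the assembly factors stood close to the background. Cox17, a small copper chaperone of complex IV, had a ratio of -1.14, and Foxred1, an assembly factor of complex I, 0.75. Of 24 genes for replication, transcription and RNA handling in mitochondria 4 were below 0, with a median of 0.25. Polrmt, the mitochondrial RNA polymerase, had 0.98 and Twnk, the mitochondrial helicase, 0.79. Slirp, a small protein that binds mitochondrial messenger RNA, was the only gene of this list at least 1.5-fold lower. It had 110 (GFP) and 48.3 CPM (sponge), a ratio of -1.19. Most genes of this list were above 0 in rod-like cells but not in every class. Below 0 were 18 of 23 measured genes in fibroblast-like, 19 of 24 in ocular surface epithelium-like and 14 of 23 in endothelial-like cells. Of all genes measured in these classes, 7834 of 15427, 10708 of 15801 and 6805 of 13892 were below 0, in the same order.

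Promoters of members were searched for 3 short motif cores known from genes of the respiratory chain, since many members were lower together. RefSeq (GRCm38.p6) gave 250 bases before to 50 bases after the start for 36 of the 45 nuclear-coded members, and both strands were read. GCGCATG, a core of the NRF1 motif, was present in 9 members (25%), against 4.41% of 27025 genes. ATGGCGG, a core of the YY1 motif, was present in 5 (13.9%), against 4.69%, and CCGGAAG, a core of the motif of GABPA and other ETS factors, in 11 (30.6%), against 9.93%. A gene with several promoters was counted once if any of them held the letters. The letters were settled after the ratios were known. Of the 9 members with the NRF1 core 4 are shown with it in capitals, and with its complement in capitals where the match is on the opposite strand. The 4 were picked to have ratios on both sides of 0 in rod-like cells. They are Atp5k (chr5:108434430-108434459, - strand, ratio -1.32), Uqcr11 (chr10:80406805-80406834, - strand, -1.03), Sdhb (chr4:140961208-140961237, + strand, 0.12) and Uqcrc1 (chr9:108936668-108936697, + strand, 0.33). Sdhb and Uqcrc1 are the only members with the NRF1 core above 0 in rod-like cells. Those not shown were all lower in the sponge-labelled library. They are Cox5b (-0.77), Ndufa6 (-0.78), Cox6a1 (383 CPM in GFP and 248 CPM in sponge), Atp5l and Ndufb8. The 4 shown thus do not give the spread of ratios over the 9. A match is a description of letters and not a binding site.
Atp5k: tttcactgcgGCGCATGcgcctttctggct
Uqcr11: cgccttcacgCATGCGCtatacgtctgcac
Sdhb: gcccagtgggCATGCGCcctacgggccgct
Uqcrc1: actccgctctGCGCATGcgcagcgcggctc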

How the data were processed

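The deposited matrices hold UMI counts per gene and cell barcode without normalization, made by the authors with Cell Ranger 7.0.0 on mm10 per the submitters' processing notes. Handling of introns and the calling of cells are not given in the sources used here. Cells needed 300 genes, 500 UMIs and a mitochondrial share no higher than 25%, which removed 176 (GFP) and 67 (sponge) of 39461 and 23267 barcodes holding 123040365 and 132067896 UMIs. Scrublet (scanpy 1.11.5), with thresholds of 0.514 and 0.723, called 0 doublets in either library, so the caller was taken not to have worked, and none were removed.

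Cells were clustered together after scaling each to 10000 UMIs, on 30 principal components of 2000 variable genes with 15 neighbours and Leiden resolution 1 (leidenalg 0.10.2), without batch correction, with the members, other listed genes of the pathway and all mitochondrial genes, 168 in all, left out of the variable genes. The 28 clusters were named from fixed markers by a rule set after seeing clusters. A name required 3 markers standing 2-fold or more above the median cluster, a runner-up class scoring below 0.5 of the winner, and no lead of another class among the 10 top genes. Counts summed over the cells of a class in a library were scaled to CPM of that sum, with no scaling for gene length, since 3′ tags count each molecule once. A gene needed 20 UMIs over both libraries. Log2 ratios put the sponge-labelled library over the other, after adding 0.5 to each count. Intervals are 95%: exact Poisson for CPM, and for ratios an exact binomial from the pair of counts. The calculation was tested on simulated data.

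The members and lists were chosen with earlier results of these data known. Named in each class were the 3 highest and 3 lowest ratios among members with at least 50 UMIs, the most abundant member of each complex, the mitochondrially coded members in rod-like cells and listed tissue forms, with the 3 highest and 3 lowest of other lists in rod-like cells. Some genes these rules reach are not reported here. Members named beside these show a role within a complex and were chosen after their values were seen.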

Additional observations from a re-analysis of the deposited data

Results flagged for a closer look

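The eGFP sequence, which no comparison of the respiratory chain uses, had 5484 UMIs in kept sponge-labelled cells and 12 in GFP-labelled cells, although GFP is named by the label of the latter alone. No label used here says if the sponge vector holds eGFP too. By class, eGFP in the sponge-labelled library stood at 669 CPM in RPE-like cells. It was 27.1 CPM in cone-like, 9.04 CPM in rod-like and 4.87 CPM in Müller-like cells, so the rod-like and Müller-like classes held little of it. Every direction given for a member rests on these labels, and if the labels were exchanged each log2 ratio would change its sign.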

How the results depend on the processing

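No paired analysis was possible because each group holds 1 library with no map from cells to mice. With 1 library per group no replicate could be left out. The count of 25 nuclear-coded members at least 1.5-fold lower in rod-like cells became 15 with at most 10% mitochondrial UMIs (14.3% of all genes), 15 with cells assigned by marker score (14.6%), 7 at 2-fold (4.12%) and 13 relative to genes of like transcript length (15.8%), the last chosen after seeing the data. In cells of 2000 to 4000 UMIs, also chosen after seeing the data, the classes lower in the sponge-labelled library were 7 of 10 for the nuclear-coded median, 8 for the mitochondrially coded sum and 4 for the balance. At that depth the log2 ratio of the balance went from -0.23 to 0.60 in bipolar-like, from -0.12 to 0.30 in cone-like, from -0.05 to 0.10 in rod-like and from -0.24 to 0.02 in pericyte and smooth muscle-like cells. That of the mitochondrially coded sum went from -0.37 to 0.16 in cone-like and from -0.56 to 0.03 in bipolar-like cells, and the nuclear-coded median from -0.39 to 0.05 in microglia- and macrophage-like, from -0.43 to 0.00 in fibroblast-like and from -0.01 to 0.20 in RPE-like cells. Of values at least 1.5-fold apart over all cells, the sign reversed at that depth for the Müller balance (0.0627), bipolar mt-Nd1 (0.0342), amacrine Atp5g1 (0.0278), and fibroblast Ndufa1 (0.0828), Ndufa5 (0.120), Cox7a2 (0.0624) and Atp5g1 (0.128). Relative to genes of like transcript length it reversed for endothelial Atp5e (0.0398) and ocular surface epithelium Ndufa1 (0.0657). The causes were not tested. The median of the nuclear-coded members in rod-like cells stayed below 0 under all 16 alternatives, from -0.72 to -0.27. The ratio of their balance kept its sign in 9 of 14, from -0.06 to 0.10. Scaling to the median of all genes shifts ratios by 0.37 in ocular surface epithelium-like, 0.19 in RPE-like and 0.11 in melanocyte-like cells. Depth limits Sdhd most, with fewer than 20 UMIs in T and NK-like cells.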

Other observations

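The largest unnamed cluster (3867 and 5316 cells) had the rod genes Nrl and Pde6g beside the corneal genes Krt12 and Aldh3a1 among its 10 leading genes and was therefore left out of the rod-like class. Its mitochondrially coded share was 17.3% (GFP) and 12.5% (sponge), above that of any named class in each library. Its nuclear-coded share was 1.75% and 1.496%. Of the 45 nuclear-coded members 26 were lower in the sponge-labelled library and 5 lower by at least 1.5-fold, against 5.62% of all 14741 genes measured there, so the count for rod-like cells depends on whether these cells are put with them. Its part in the rod-like values was not tested.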
